A study of Mus musculus with 217 samples.

Results

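Granulosa cells from 10-month-old wild-type mice were compared with granulosa cells from 2-month-old wild-type mice. The members are the 6 bulk RNA-seq libraries whose count columns carry the old wild-type control label (3 pools) or the young wild-type label (3 pools), out of 217 samples in the series, most of which are single oocytes. All 6 pools came from females of a mixed C57BL6/129 background. The old control mice drank water with 500 µl of DMSO per litre, the solvent used for resveratrol in the treated groups, and no resveratrol. The labels do not make clear whether the young mice drank the solvent, so age and months on the solvent cannot be told apart. Mice were primed with 5 IU of pregnant mare's serum gonadotrophin 46 h before visible follicles were punctured, and oocytes were removed with a 40 µm strainer. The labels give a pool both as 500 and as 50 cells, and name no animal for a pool. The p-values measure the spread between pools of a group, estimated jointly over 18 granulosa pools in 6 groups. They therefore do not rest on the 6 wild-type pools alone. Calls numbered 268 in this fit and 936 in a fit of the 2 groups alone. A fit without the young group labelled knockout, chosen after the values were seen, gave 920. For context, the fit and a few comparisons also used 3 young and 3 old control pools labelled Tet2 knockout, and 6 old pools given 30 mg of resveratrol per litre (3 of each genotype label). Which part of Tet2 the knockout removes was not known here, and Tet2 counts were found under both genotype labels.

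Granulosa cells line the ovarian follicle, pass metabolites to the oocyte through gap junctions, and make oestradiol under follicle-stimulating hormone (FSH). After the luteinizing hormone surge they stop dividing and switch towards progesterone synthesis. In bulk pools, fewer cells of a type and less RNA per cell cannot be told apart.

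Depth differed by age without overlap. The young pools held 639907, 470647 and 500603 counts, and the old pools 5995491, 18474409 and 14831950. One count was therefore worth 1.52 to 2.02 CPM (counts scaled to library size with TMM factors) in a young pool and 0.0493 to 0.155 in an old one. Of 17558 tested genes, 20.6% to 23.5% had no count in a young pool, against 0.974% to 2.53% in an old pool. Between replicates, log CPM across genes correlated at 0.847 to 0.853 among young pools and 0.958 to 0.974 among old pools. A further depth contrast lay within the young pools labelled knockout: replicate 2 held 11595710 counts and the other 2 held 749172 and 722075.

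Of the granulosa list members named here, Inha was abundant at both ages, and Fshr and Cyp19a1 were low. Inha, the inhibin alpha subunit, stood at 1530, 1758 and 1208 CPM in the young pools and at 709, 670 and 1035 in the old pools. Fshr, the FSH receptor, lay between 10.1 and 25.8 CPM. Cyp11a1, the enzyme that starts steroid synthesis and not a member of the granulosa list, lay between 2734 and 6086. Cyp19a1, the aromatase that makes oestradiol, was low in all 6 pools (1.71 to 8.10 CPM). Of other cell types, summed oocyte markers took 0.0645%, 0.0227% and 0.0469% of counts in young pools, and 0.00485%, 0.00355% and 0.00411% in old pools. Macrophage and leukocyte markers took 0.0106% to 0.0140% in young pools and 0.0195% to 0.0229% in old pools, with Ptprc, Adgre1 and C1qa at 0 in all young pools. H2-Ab1 of the same list went the other way without passing (edgeR adjusted p = 0.39). It stood at 65.3, 52.6 and 62.5 CPM in young pools and at 43.5, 39.4 and 41.2 in old pools. Erythroid markers ranged from 0.000212% to 0.0542% in young pools and from 0.0271% to 0.421% in old pools.

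**Figure D1:**
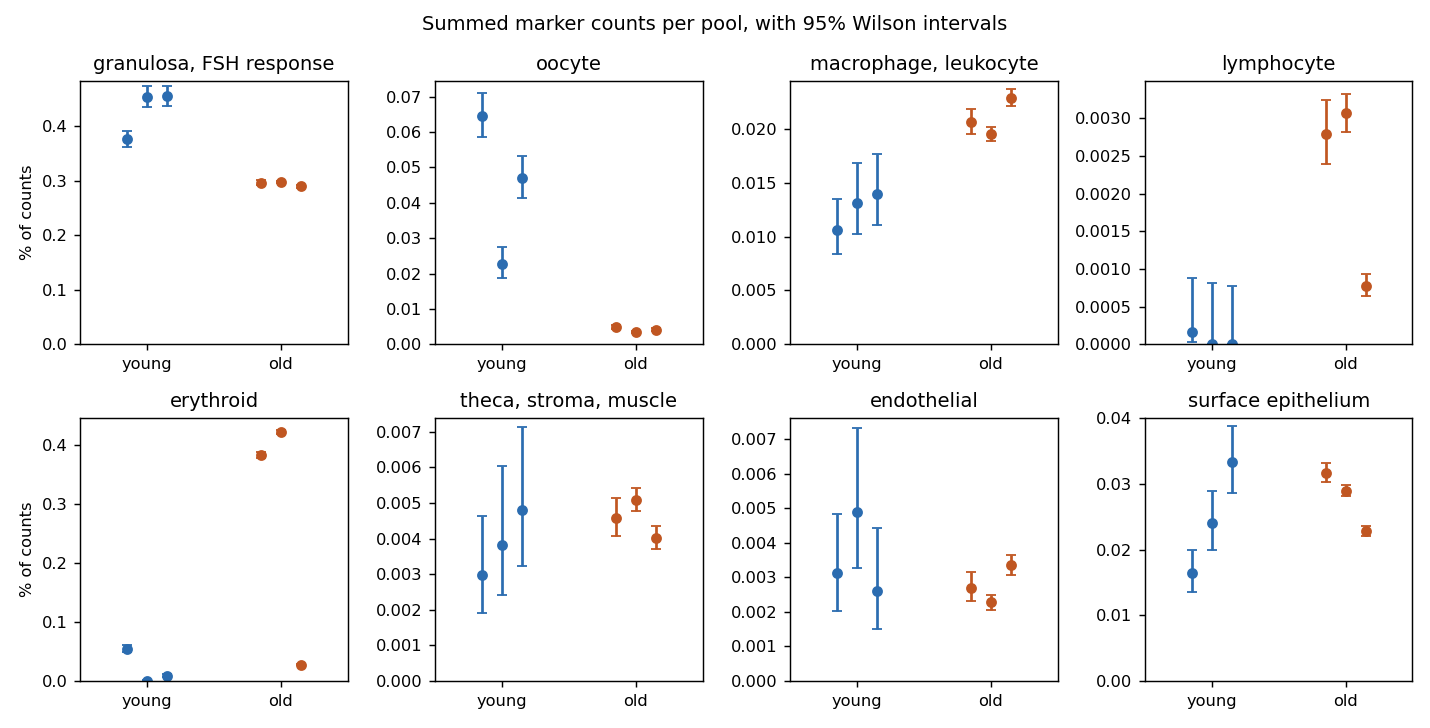
Percent of all counts taken by the summed markers of 8 cell types in each of the 3 young and 3 old wild-type pools (points), with 95% Wilson intervals that cover counting error only; each panel has its own linear axis from 0. Oocyte markers are higher in all 3 young pools (0.0227% to 0.0645%) than in the old pools, and macrophage markers are higher in all 3 old pools (0.0195% to 0.0229%).

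With age, 148 genes rose and 120 fell, which is 1.53% of the genes tested (0.843% higher, 0.683% lower; edgeR quasi-likelihood test, Benjamini-Hochberg adjusted p under 0.05). The balance of the directions depended on the scaling and fit: RLE factors gave 82 higher and 137 lower, DESeq2 160 and 307, and a fit of the 2 groups alone 397 and 539. The median log2 change over all tested genes was 0.17, old minus young, and 0.07, 0.03 and 0.02 in those other fits. At an unadjusted p under 0.05 there were 2811 genes. Among the genes that rose, the median log2 change was 1.57, and among those that fell it was -1.98. Vnn1, Krt23 and 3 class I histocompatibility genes of low count (H2-K2, H2-T10 and H2-Q1) were among the largest rises, and transcripts of the oocyte among the largest falls. The number of calls rested on every pool. Leaving out 1 of the 6 pools gave 60 to 120 calls in all, and 58 to 102 of the 268 were still called. Totals were 91, 75 and 120 without old replicates 1, 2 and 3, and 66, 111 and 60 without young replicates 1, 2 and 3. Thinning all libraries to the shallowest depth gave 184 calls in all. Of the 268, 213 were still tested there and 125 still called.

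**Figure D2:**
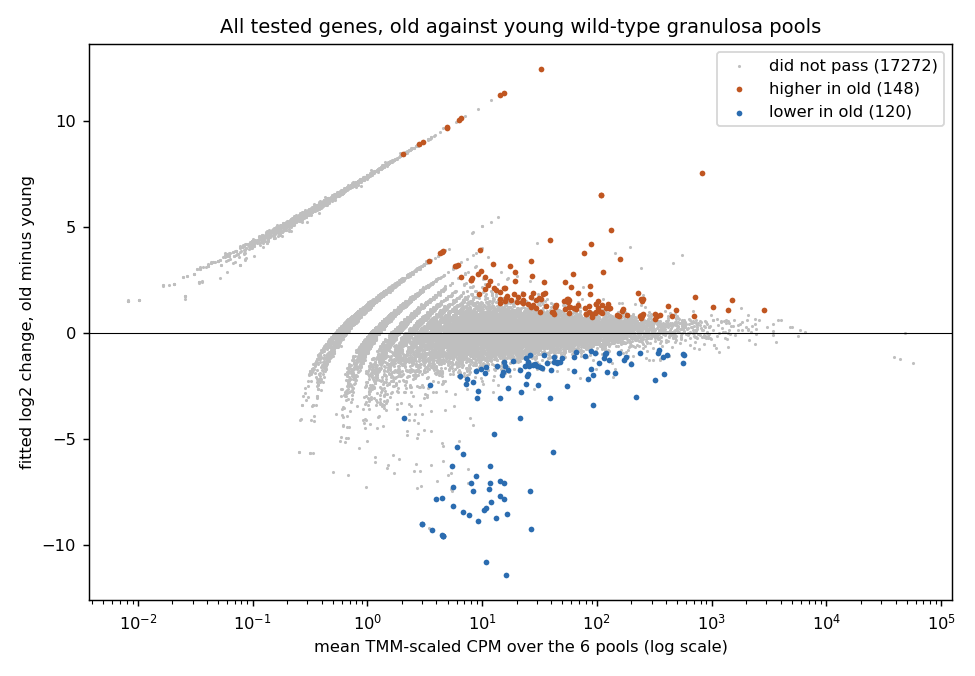
Fitted log2 change, old minus young, against mean TMM-scaled CPM over the 6 pools (log axis); each point is a tested gene, and 18 tested genes with no count in these pools are not drawn. Genes with no count in the young pools form the line at the upper left, and the deepest falls lie at low mean CPM.

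The clearest rise was that of Vnn1 (chromosome 10, 23894688 to 23905343, GRCm38), which encodes vanin 1, a membrane-bound pantetheinase that releases cysteamine and pantothenate. The young pools held 12.2, 0 and 13.3 CPM, and the old pools 1644, 1619 and 1686. The groups were far apart and the old pools close together, at 1650 ± 34.1 CPM against 8.47 ± 7.35 (SD, n = 3 each). The log2 change was 7.54 (SE 0.92, edgeR adjusted p = 7.91e-05). Vnn3 was at 1.52, 12.1 and 0 CPM in young pools and at 11.5, 14.7 and 21.5 in old pools, which overlapped and did not pass (edgeR adjusted p = 0.20). None of the other 7 tested genes of the pantetheine and coenzyme A list passed, and the median log2 change of its 9 tested members was 0.13.

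Krt23, a type I keratin (chromosome 11, 99477974 to 99493137), stood at 6.08, 2.02 and 1.89 CPM in young pools and at 69.4, 54.5 and 99.4 in old pools. Its log2 change was 4.39 (SE 0.59, edgeR adjusted p = 0.000246). Snhg6, a long non-coding RNA that hosts a small nucleolar RNA, rose from 22.8, 16.2 and 11.4 CPM to 87.3, 99.4 and 82.3. Neither gene overlapped between ages, and both kept the call in each of 13 other ways of processing the counts, as did Vnn1.

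Of 28 tested H2 genes of the histocompatibility cluster, a grouping made after the values were seen, 5 rose (0.843% of all tested genes) and none fell. A negative change was found for 8. The abundant class I genes H2-K1 and H2-D1 averaged 596 and 620 CPM in young pools and 490 and 777 in old pools and did not pass (edgeR adjusted p = 0.60 and 0.55). H2-Q10 and H2-T23 were lower in old pools without overlap, and did not pass either (edgeR adjusted p = 0.43 and 0.29). H2-Q10 stood at 456, 336 and 413 CPM in young pools and at 167, 150 and 179 in old pools. H2-T23 stood at 170, 132 and 168 CPM, then 91.3, 82.4 and 68.7. H2-T10, annotated as a polymorphic pseudogene, went from 4.56, 2.02 and 3.79 CPM to 31.8, 32.9 and 30.8 (log2 change 3.16, SE 0.45, edgeR adjusted p = 0.00048). H2-K2, annotated as a transcribed pseudogene, had no count in any young pool and 9.01, 12.6 and 17.8 CPM in the old pools, at least 7.87-fold higher when 3 counts over the young group are taken as the floor. H2-Q1 had 2 counts in all in the young pools and 736 in the old, a ratio of 14.4 (95% counting interval 3.98 to 119). H2-T9 and H2-Ke6, a steroid dehydrogenase gene that lies in the cluster and is no antigen-presenting gene, also passed. Reads of these near-identical genes can be split between copies by the counting, so single values within the family are uncertain. Of those 13 ways, the call of H2-T9 was lost in 4 and that of H2-Ke6 in 6; that of H2-Q1 was lost in 2 of the 12 that tested it. The young pools labelled knockout held 57.9, 43.1 and 30.1 CPM of H2-T10 and 22.04, 18.7 and 5.47 of H2-K2, above all 3 young wild-type pools. In the interferon response list 0 of 25 tested genes passed.

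The metallothioneins Mt1 and Mt2 and a few glutathione genes rose by smaller folds. Metallothioneins are small cysteine-rich proteins that bind zinc and copper, induced through the metal-responsive factor MTF1. Mt1 stood at 684, 520 and 651 CPM in young pools and at 1470, 1570 and 1319 in old pools, a log2 change of 1.23 (SE 0.21, edgeR adjusted p = 0.00417). Mt2 stood at 131, 117 and 123 CPM, then 356, 438 and 341, a log2 change of 1.61 (SE 0.24, edgeR adjusted p = 0.000676). The lowest old pool was above the highest young pool for both. They were the only 2 of 7 tested metallothionein and zinc genes to pass (0.843% of all tested genes rose). The 250 bases before each start site (RefSeq, GRCm38.p6, plus strand), shown because the pair rose together, are given with matches to the core of the metal response element, TGCACNC or TGCGCNC on either strand, in capitals; the Mt1 window is chr8:94178839-94179088 and the Mt2 window chr8:94172368-94172617.
Mt1: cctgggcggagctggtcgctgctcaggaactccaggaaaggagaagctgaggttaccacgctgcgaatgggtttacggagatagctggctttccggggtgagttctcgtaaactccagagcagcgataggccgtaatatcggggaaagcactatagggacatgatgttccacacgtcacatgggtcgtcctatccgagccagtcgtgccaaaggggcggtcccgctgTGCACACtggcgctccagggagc
Mt2: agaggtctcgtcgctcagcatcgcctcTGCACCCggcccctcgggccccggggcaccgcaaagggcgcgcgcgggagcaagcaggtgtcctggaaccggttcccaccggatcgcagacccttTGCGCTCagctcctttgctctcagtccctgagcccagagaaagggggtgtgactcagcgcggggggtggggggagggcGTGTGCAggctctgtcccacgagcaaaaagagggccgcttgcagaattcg
Mt1 had 1 match and Mt2 had 3 in these windows. Each gene had 1 start site in the promoter source, and other start sites were not searched. The gene starts in GENCODE vM21 differ from these: 94179082 for Mt1, inside its window, and 94172664 for Mt2, past the end of its window. At least 1 match was found in 29.5% of the promoters of tested genes and 3 or more in 2.12% (21.3% and 1.28% of all promoters in the table). A second motif, TAATTA or TAATTG, was searched in the Bmp15 promoter and matched once there, against 6.51% of tested promoters with a match. Gdf9 had no entry. Both motifs were chosen after the values were seen, and a match is a description of letters only.

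In the antioxidant list, 3 of 34 tested genes rose (0.843% of all tested genes) and none fell, with a median log2 change of 0.49 against 0.17 over all genes. Gstm1, a cytosolic glutathione transferase, went from 51.6, 66.8 and 47.3 CPM to 148, 153 and 128. Mgst1, a membrane-bound one, and Gpx1, a glutathione peroxidase that reduces hydrogen peroxide, had log2 changes of 1.09 and 0.77 (edgeR adjusted p = 0.0279 and 0.0431). Gstm2, outside the list, had a log2 change of 1.25 (edgeR adjusted p = 0.00362). Reads of Gstm genes may be split among near-identical copies. Alcohol dehydrogenase Adh1 was called (log2 change 4.18, edgeR adjusted p = 0.034) with 24.3, 0 and 0 CPM in young pools and 174, 164 and 166 in old pools.

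**Figure D3:**
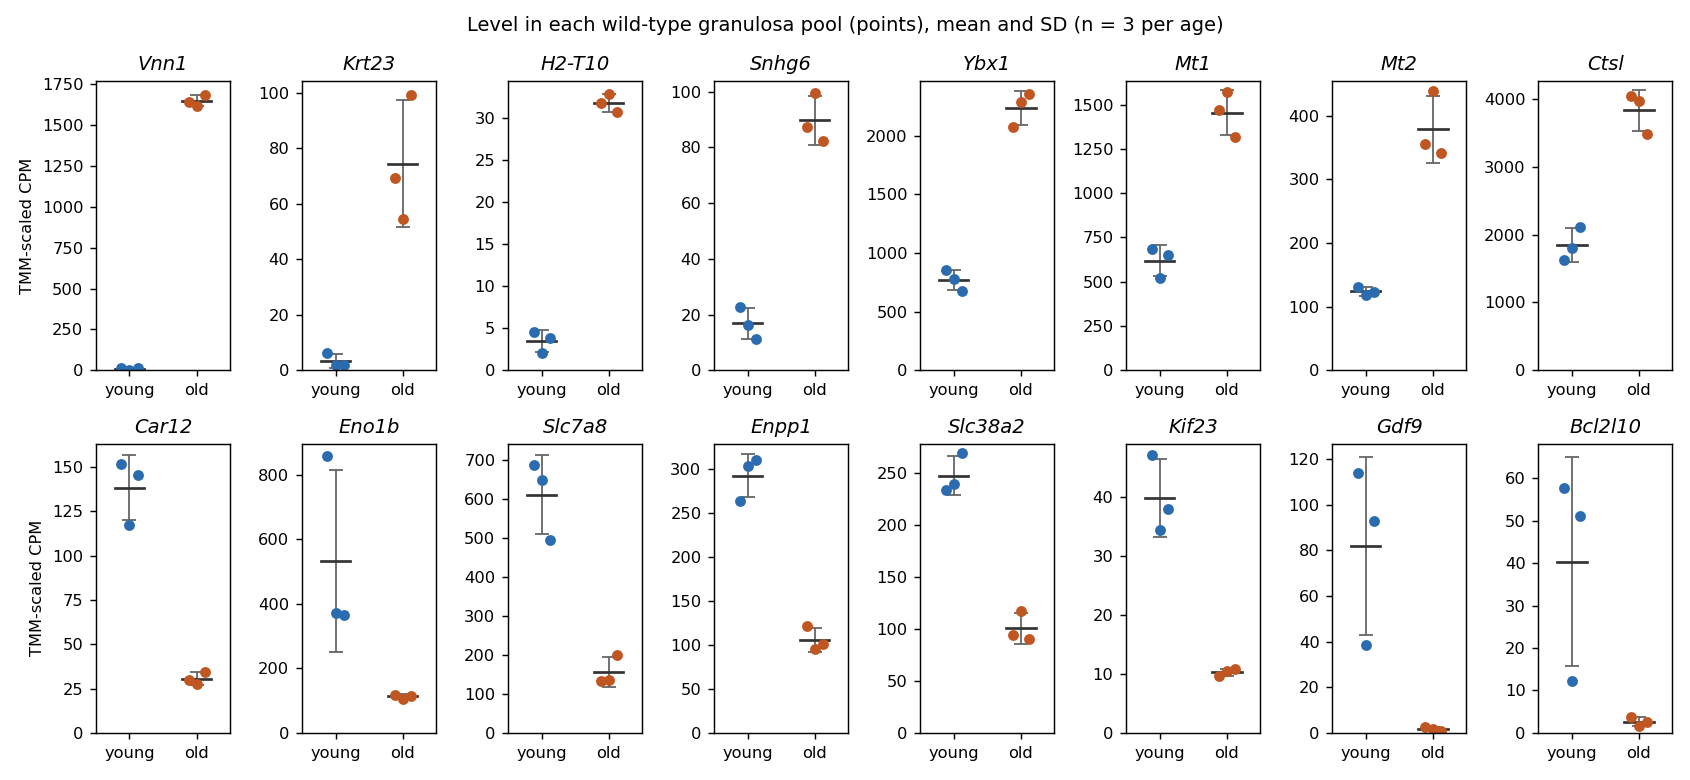
TMM-scaled CPM of 16 genes in each young and old wild-type granulosa pool (points), with the mean (bar) and SD (n = 3 per age); each panel has its own linear axis from 0. The ages do not overlap in any of the 16 panels, and the young pools of Gdf9 and Bcl2l10 spread widely.

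A minority of the genes of translation and respiration passed, where 0.843% of all tested genes rose. The medians of their lists were above that of all genes. Of 79 cytosolic ribosomal protein genes 3 rose, Rpl3 and Rps27a among them, and none fell, with a median log2 change of 0.48. Of 77 mitochondrial ribosomal protein genes 3 rose, led by Mrps18c (log2 change 1.22, edgeR adjusted p = 0.0122), and of 77 oxidative phosphorylation genes 4 rose. Ndufs5, a complex I subunit, had 15.2, 52.6 and 49.2 CPM in young pools and 110, 121 and 176 in old pools (log2 change 1.84, edgeR adjusted p = 0.00601). Its old pools all lay above its young pools. Respective medians for the 2 mitochondrial lists were 0.50 and 0.46. Old pools lay wholly above young pools for 69 of the 79, 42 of the 77 and 52 of the 77 genes, where the background over all tested genes is 23.8%. Shorter genes in general had higher log2 changes: the median was 0.37 in the shortest of 4 equal groups of protein-coding genes by exonic length and 0.00 in the longest. The part of gene length in the medians of these lists was not tested. Ybx1, an RNA-binding protein that packages messenger RNA, was outside these lists and rose from 852, 780 and 680 CPM to 2077, 2286 and 2354 (log2 change 1.54, edgeR adjusted p = 0.00272).

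Other rises named a protease, a stress factor and brakes on the cell cycle. Ctsl, the lysosomal protease cathepsin L, stood at 1625, 1806 and 2111 CPM in young pools and 4048, 3961 and 3479 in old pools (log2 change 1.05, edgeR adjusted p = 0.00417). It was the only 1 of 25 tested autophagy and lysosome genes to pass, and the median of that list was -0.14. Ddit3, a transcription factor induced by endoplasmic reticulum stress, went from 39.5, 30.4 and 36.0 CPM to 74.1, 79.9 and 92.0 (log2 change 1.21, edgeR adjusted p = 0.0106). The other 1 of 29 tested unfolded protein response genes to pass was Pdia4, a disulphide isomerase (log2 change 1.7, edgeR adjusted p = 0.0345), while the list's median was -0.03. Cdkn1b, the cyclin-dependent kinase inhibitor p27 that is known to accumulate as granulosa cells luteinize, went from 21.3, 8.10 and 17.0 CPM to 124, 123 and 78.1 (log2 change 2.77, edgeR adjusted p = 0.0434). Btg1, an antiproliferative gene, also rose (log2 change 1.17, edgeR adjusted p = 0.0355), and these were 2 of 18 tested genes of the cell cycle exit list. Over all tested genes, 0.843% rose. Calls of Pdia4, Cdkn1b, Btg1, Gpx1, Mgst1 and Adh1 were each lost in 6 to 9 of the 13 other ways, and that of Ddit3 in 4. That of Rps27a was lost in 9, that of Rpl3 in 6, that of Mrps18c in 5 and that of Gstm1 in 3.

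In the cell cycle list, 2 of 49 tested genes passed, and both fell (0.683% of all tested genes). Kif23, a kinesin of the midbody needed for cytokinesis, stood at 47.1, 34.4 and 37.9 CPM in young pools and 9.63, 10.5 and 10.8 in old pools (log2 change -1.96, SE 0.28, edgeR adjusted p = 0.000411). Aurkb, the kinase of the chromosomal passenger complex, went from 24.3, 60.7 and 43.5 CPM to 7.30, 15.7 and 21.1 (log2 change -1.49, edgeR adjusted p = 0.0345, lost without old replicate 1 or 2 or young replicate 2 or 3). The list's median was -0.57, 40 of the 49 had a negative change, and the old pools lay wholly below the young for 15 (8.01% of all tested genes). Top2a was at 51.6, 58.7 and 51.1 CPM, then 15.1, 24.5 and 30.5, and Mki67 at 36.5, 30.4 and 34.1, then 10.4, 15.5 and 17.1; neither passed. Oocytes contain Kif23 RNA too (1369 CPM in young oocytes), and less of Aurkb (27.1 CPM).

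Among single genes outside the lists that fell were membrane proteins. Car12, a surface carbonic anhydrase (chromosome 9, 66713686 to 66766845), stood at 152, 117 and 146 CPM in young pools and 29.7, 27.5 and 34.6 in old pools, a log2 change of -2.18 (SE 0.29, edgeR adjusted p = 0.000206). Slc7a8, an amino acid exchanger, went from 688, 648 and 496 CPM to 132, 137 and 200 (log2 change -1.96, edgeR adjusted p = 0.00354). Slc38a2, a sodium-coupled neutral amino acid transporter, went from 234, 239 and 269 CPM to 93.8, 117 and 90.2 (log2 change -1.30, edgeR adjusted p = 0.00087). Ages did not overlap for any of these 3. Enpp1, an ectoenzyme that makes pyrophosphate from nucleotides, fell from 264, 304 and 310 CPM to 122, 95.8 and 101 (log2 change -1.46, edgeR adjusted p = 0.000389). Slc16a3, a lactate exporter and the single call among 22 glycolysis genes (0.683% of all tested genes fell), fell by 1.98 on the log2 scale (edgeR adjusted p = 0.0459). This call was lost in 6 of the 13 other ways. Eno1b, which is nearly identical in sequence to Eno1 and can share its reads, was at 858, 373 and 365 CPM and then 119, 105 and 115, whereas Eno1 was higher in old pools without passing (edgeR adjusted p = 0.12).

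The summed granulosa identity and FSH response list took 0.376%, 0.454% and 0.455% of counts in young pools and 0.297%, 0.298% and 0.290% in old pools, which did not overlap. Young pools labelled knockout held 0.708% and 0.405% in the shallow replicates 1 and 3 and 0.291% in the deep replicate 2. The part of library depth in these shares was not tested. Over all tested genes 0.843% rose and 0.683% fell. In this list 13 genes had a positive and 13 a negative change, with a median of -0.06. Its old pools lay wholly above the young for 4 genes and wholly below for 4 (23.8% and 8.01% of all tested genes). Of its 26 tested genes only Slc18a2, a vesicular monoamine transporter, passed, from 18.2, 22.3 and 20.8 CPM to 6.99, 7.5 and 5.82 (log2 change -1.59, edgeR adjusted p = 0.0191, lost without any 1 of the 6 pools). Inha (log2 change -0.90, edgeR adjusted p = 0.25) and the gap junction gene Gja1 (log2 change -0.66, edgeR adjusted p = 0.086) did not pass. In the luteinization and steroid list, 1 of 23 rose (Cdkn1b) and 1 fell: Hsd17b7, a dehydrogenase of cholesterol and oestradiol synthesis, went from 158, 126 and 204 CPM to 65.8, 58.4 and 86.6 (edgeR adjusted p = 0.0406, likewise lost without any 1 pool). In that list 18 genes had a positive and 5 a negative change, with a median of 0.38. Its old pools lay wholly above the young for 13 genes and wholly below for 3 (23.8% and 8.01% of all tested genes). Star, which carries cholesterol into mitochondria, was at 194, 367 and 206 CPM and then 463, 466 and 635, without passing (edgeR adjusted p = 0.16). Akr1c18, which inactivates progesterone, was at 688, 1282 and 1389 CPM and then 2561, 2720 and 2130 (edgeR adjusted p = 0.20). Ovulation and cumulus expansion genes gave 0 calls among 20. Edn2, an endothelin, had 138 CPM in young replicate 2 and 3.04 to 10.1 in the other 5 pools; its log2 change of -2.64 became 0.53 without that pool. Among abundant secreted or lysosomal products outside the lists, Prss35, Sfrp2, Pcyox1 and Psap fell by 1.01, 1.42, 1.04 and 1.04 on the log2 scale; these calls were lost in 6, 3, 5 and 5 of the 13 other ways.

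**Figure D4:**
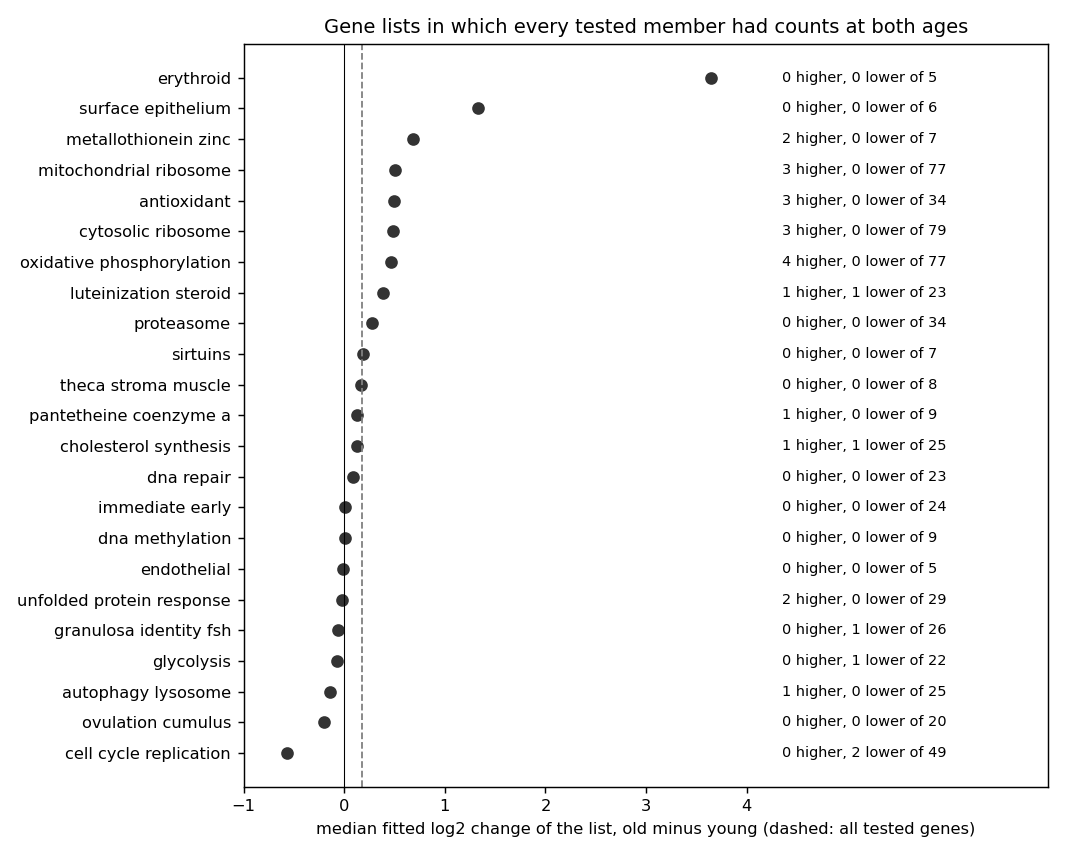
Median fitted log2 change, old minus young, of each gene list whose tested members all had counts at both ages (points), with the number of members that passed in each direction; the dashed line is the median of all tested genes, 0.17. Erythroid genes stand farthest right (3.65) with 0 of 5 passing, and cell cycle genes farthest left (-0.57).

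Oocyte transcripts made the deepest falls. Gdf9, a growth factor secreted by oocytes, stood at 114, 38.5 and 92.8 CPM in the young granulosa pools and at 2.8, 1.58 and 0.929 in the old ones (log2 change -5.64, SE 1.00, edgeR adjusted p = 0.00498). Bcl2l10, a Bcl2-family gene abundant in oocytes, went from 57.7, 12.1 and 51.1 CPM to 3.73, 1.68 and 2.48 (log2 change -4.0, edgeR adjusted p = 0.00242). H1foo, the oocyte linker histone, went from 80.5, 20.2 and 54.9 CPM to 0.311, 0.0986 and 0.495. Oas1d had 57 counts over the young pools and 0 over the old, at least 485-fold lower by the floor of 3 counts. Young replicate 2 was the lowest young pool for each of these 4 genes. Of 23 tested oocyte markers 10 fell and none rose (0.683% of all tested genes fell). The change was positive for 4 that did not pass, and negative for 19. No count was found in any young pool for 2 of the 23.

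Of the 120 genes that fell, 50 were at least 10 times as abundant in young oocytes as in the old granulosa pools, the 10 markers and 40 others. A low level in the old pools is part of this rule, so genes that fell meet it more easily and the count is only a description. The rule was set after the values were seen, and the oocytes are 18 single cells titled young wild type whose genotype tag reads knockout. Of the 50, 49 reached 10 CPM in oocytes, and their young pool levels were a median 1.1%, 0.399% and 0.846% of the oocyte level in replicates 1, 2 and 3. Families with oocyte members were among them, with all 3 tested Obox homeobox genes and 3 of 5 tested Nlrp genes called lower (0.683% of all tested genes). In other such families, 3 of 4 tested Tcl1, 2 of 2 Omt2, 3 of 8 Fbxw, 2 of 5 Oas1 and 1 of 2 Oog genes were called lower. The change was positive for 2 of the Oas1 genes and 1 of the Oog genes, which did not pass. The remaining 70 genes that fell had a median log2 change of -1.55 and a median of 3.33 CPM in oocytes; Car12, Slc7a8, Slc38a2 and Enpp1 are among them. In the young pools labelled knockout, oocyte markers took 0.0279% and 0.0428% of counts in the shallow replicates 1 and 3 and 0.00318% in the deep replicate 2, where Gdf9 stood at 0.0796 CPM. The part of library depth and of oocyte RNA in these falls was not tested.

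**Figure D5:**
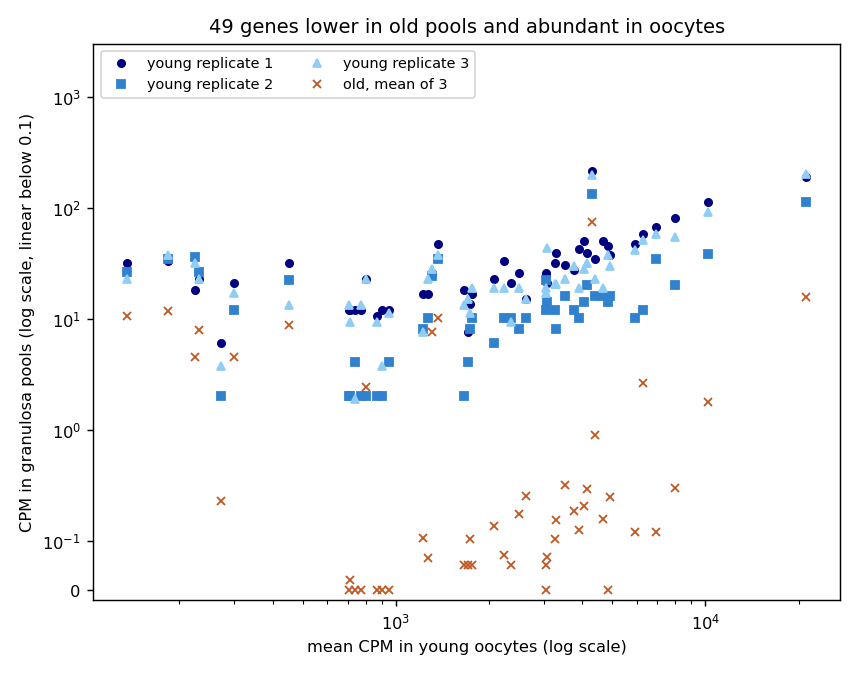
CPM in each young granulosa pool and mean CPM over the 3 old pools against mean CPM in 18 young oocytes, for 49 genes that fell and were abundant in oocytes; both axes are logarithmic, the vertical one linear below 0.1. Young replicate 2 is the lowest young pool for 40 of the 49 genes, at a median 0.399% of the oocyte level.

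Markers of blood cells did not pass the test. Of 20 tested macrophage and leukocyte genes none passed, and 10 had no count in any young pool. A positive change was found for 19 of them and a negative one for 1, H2-Ab1. H2-Aa, a class II antigen-presenting gene, had 0, 4.05 and 0 CPM in young pools and 22.2, 13.5 and 13.9 in old pools (edgeR adjusted p = 0.17). The list's median of 5.05 became 0.26 when the genes with no young count were set at their lower bound. Haemoglobin Hbb-bs ranged from 0 to 207 CPM in young pools and from 110 to 1582 in old pools (edgeR adjusted p = 0.074). Lymphocyte markers had 1 count in total over the 3 young pools; 3 counts would be 0.000469% to 0.000637% of a young pool, and the old pools held 0.000775% to 0.00306%. Alox15, a lipoxygenase, and Bhlhe41, a clock-linked repressor, had no count in young pools and were at least 16.6-fold and 6.68-fold higher in the old. The call of Alox15 was lost in 7 of the 13 other ways of processing, and that of Bhlhe41 in 7 of the 12 that tested it.

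Genes of DNA methylation and its removal, the subject of the series' knockout, did not pass in these pools (0 of 9). Tet2 stood at 4.56, 12.1 and 7.57 CPM in young pools and 12.3, 12.8 and 9.72 in old pools (log2 change 0.56, edgeR adjusted p = 0.56). Tet3 stood at 18.2, 26.3 and 36.0 CPM, then 12.9, 18.5 and 13 (log2 change -0.83, edgeR adjusted p = 0.21). Tet1, with 7 counts in all over the young pools, had a log2 change of 0.00 whose sign varied with the settings. Of 7 tested sirtuins none passed; Sirt1 was at 4.56, 6.07 and 1.89 CPM and then 10.7, 12 and 6.44 (edgeR adjusted p = 0.39).

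Pools labelled Tet2 knockout gave a second old-minus-young comparison from separate samples in the same fit. It had the same sign for 130 of the 148 genes that rose (56.3% of all tested genes were positive there) and for 102 of the 120 that fell (43.7% were negative there). Ctsl, Mt1 and Mt2 had log2 changes of 1.06, 1.42 and 1.78 there, beside 1.05, 1.23 and 1.61 in wild-type pools. Bcl2l10 and Kif23 had -4.0 and -1.17. Slc38a2 and Slc7a8 had -0.33 and -0.51, and Vnn1 had 0.62. Tested directly, the difference between the genotype labels passed for 24 genes (0.137% of 17558), 18 of them with a larger value in wild-type pools and 6 with a smaller one. Of the genes called with age in wild-type pools, 11 that rose and 6 that fell were among these 24.

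The deep young pool labelled knockout was set beside the called genes because its depth was like that of the old pools, a choice made after the values were seen. It lay below all 3 old wild-type pools for 98 of the 148 genes that rose (37.2% of all tested genes) and above all 3 for 52 of the 120 that fell (31.0%). Set against the young wild-type pools, it lay above all 3 for 132 of the 148 (34.8% of all tested genes) and below all 3 for 112 of the 120 (16.6%). The shallow pools labelled knockout, replicates 1 and 3, lay below all 3 old pools for 114 and 129 of the 148 (51.7% and 46.6%) and above them for 94 and 98 of the 120 (29.6% and 31.6%). They lay above all 3 young wild-type pools for 107 and 103 of the 148 (25% and 25.3%), and below them for 61 and 53 of the 120 (22.7% and 16.6%). The called genes were picked on the difference between these same young and old wild-type pools. Any other pool then lies more easily between the 2 groups, so the shares of all tested genes are no matched background. These counts are only a description. In the deep pool the Vnn1 level was 758 CPM, its Krt23 level 78.5 and its Mt2 level 167. For Car12 it had 29.9 CPM and for Kif23 24.2. It also carries another genotype label and a higher share of macrophage markers (0.102%), so depth, genotype and cell content cannot be told apart in it.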

How the data were processed

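The deposited files give raw counts per gene. Per the submitters' processing notes, HISAT2 2.1.0, featureCounts and DESeq2 were used with mm10. Libraries were Smart-seq2, per the labels' protocols. Strand setting and filters are not given in the sources used here. Samples were grouped by title.

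Counts of 18 granulosa pools in 6 groups were fitted with edgeR 4.0.16 (R 4.3.3): TMM factors, filterByExpr at a minimum count of 10, 1 mean per group, 12 residual degrees of freedom, quasi-likelihood F test and Benjamini-Hochberg adjustment over 17558 genes at 0.05. Fitted log2 changes of genes with no count at one age depend on the prior count; bounds use 3 counts over the group. The biological coefficient of variation was 0.306. The code was tested on simulated data. Shares carry 95% Wilson intervals that cover counting error only. Intervals of count ratios also cover counting error only.

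Annotation came from GENCODE vM21 by symbol (13547 of 17558 tested genes matched). Named genes are the largest and most certain changes without overlap, the most abundant called genes, up to 4 per list, Tet1 to Tet3, and the 4 lowest p for the genotype difference, leaving out numbered gene models; H2-T9, H2-Ke6, H2-K1, H2-D1, Top2a, Mki67, Vnn3, Eno1, Star, Akr1c18, Inha, Gja1, Sirt1, Cyp11a1, Fshr, Cyp19a1, Ptprc, Adgre1, C1qa and Bmp15 were named after their values were seen. H2-Ab1, H2-Q10 and H2-T23 were likewise named after their values were seen. Members and lists were chosen with earlier results of these data known.

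Alternatives were RLE factors, DESeq2 1.42.0, other count filters, only the 2 groups, a replicate block, 1 depth, and each pool left out. The second count table, of other oocytes, was not used here.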

Additional observations from a re-analysis of the deposited data

Results flagged for a closer look

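The age effect of 7 named genes differed between wild-type pools and pools labelled Tet2 knockout by a test of the difference itself (edgeR quasi-likelihood test, adjusted over all genes); each value is the wild-type log2 change minus that of the knockout label. The 2 comparisons share no pool. Vnn1 differed by 6.92 (adjusted p = 0.0038), with 5.51, 758 and 399 CPM in young and 576, 557 and 695 in old pools labelled knockout. Krt23 differed by 3.7 (adjusted p = 0.028), with 123, 78.5 and 82.0 CPM in the young and 140, 185 and 124 in the old. Adh1 differed by 7.02 (adjusted p = 0.0092), with 1.38, 183 and 2.73 CPM in the young and 11.6, 7.99 and 12.2 in the old; the deep replicate 2 alone is high among the young. H2-K2 differed by 10.47 (adjusted p = 0.02), a fitted value that depends on the prior count, as the young wild-type pools had no count. Pdia4 differed by 2.87 (adjusted p = 0.026), with 772, 1153 and 990 CPM in the young and 268, 248 and 781 in the old. Dynlt1 differed by 2.61 (adjusted p = 4.1e-05), with 81.3, 57.2 and 77.9 CPM in the young and 13.5, 14.1 and 10.6 in the old. Mtfr2 differed by 5.12 (adjusted p = 0.017), with 8.27, 6.21 and 16.4 CPM in the young and 0.169, 0 and 0.103 in the old. Neither Dynlt1 nor Mtfr2 passed with age in wild-type pools.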

How the results depend on the processing

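Of 268 calls, 37 (22 higher, 15 lower) kept call and direction under each of 13 other settings; those named above are Vnn1, Krt23, Snhg6, H2-T10, H2-K2, Mt1, Mt2, Ctsl, Ybx1, Gstm2, Ndufs5, Car12, Slc7a8, Slc38a2, Enpp1, Eno1b, Kif23, Gdf9, Bcl2l10, H1foo and Oas1d. RLE factors gave 82 higher and 137 lower genes, with 197 of the 268 still called. DESeq2 called 467 (307 lower; 81 for the genotype difference). Without a count filter there were 785 (525 higher, 260 lower; 129 for the genotype difference, this last an alternative added after seeing the data). Fitting only the 2 groups gave 936 (397 higher, 539 lower). At 1 depth, 91 genes were higher and 14 passed for the genotype difference. Chosen after seeing the data, thinning with seeds 2 and 3 gave 98 and 90 higher genes, and 15 for the genotype difference with seed 3; a model without the young group labelled knockout gave 920 (632 higher, 288 lower). Leaving out 1 wild-type pool gave 60 to 120 calls in all (33 to 69 higher, 24 to 58 lower). Leaving out 1 pool labelled knockout gave 200 to 527. In these, 101 to 266 were higher and 82 to 261 lower, the most without young replicate 2. The genotype difference passed for 14 to 58 genes when 1 of the 12 control pools was left out. The replicate block gave 211 calls in all, with 204 of the 268 still called. Same-numbered young and old pools correlated at 0.000315, -0.0127 and -0.0472 in their deviations. Counting error in the shallow young pools can hide a shared preparation, so these values cannot decide whether same-numbered pools are paired. Tet1 reversed to -0.10 with RLE factors and with DESeq2, -0.0567 with a minimum count of 30 and -0.0760 in the 2 groups alone, and ranged from -0.41 to 0.71 with 1 pool left out. Dynlt1 reversed to -0.11 at 1 depth, and to -0.0504 and -0.0315 with seeds 2 and 3. Edn2 ranged from -3.21 to 0.53 with 1 pool left out, reversing without young replicate 2. The cause was not tested for any of these. Depth limits the young pools: a gene under about 2 CPM has at most a few counts there.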
